A study of Mus musculus with 10 samples.

Results

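Glutathione S-transferases are the enzymes that join the tripeptide glutathione to reactive, often fat-soluble molecules so that they can be exported and excreted. The 10 genes followed here in mouse liver comprised 4 of the alpha class (Gsta1, Gsta2, Gsta3 and Gsta4), 3 of the mu class (Gstm1, Gstm2 and Gstm3), 2 of the pi class (Gstp1 and Gstp2) and 1 of the theta class (Gstt1). They were taken as a list of names, 10 of the 24052 genes counted, and all 10 passed the filter on low counts. Gsta1 passed it only through the Ndrg3 LKO livers, since 1 of 5 wild-type livers and 5 of 5 Ndrg3 LKO livers reached 1 CPM, the gene's counts scaled to the size of the library.

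Sequenced RNA came from 10 livers, 5 of them wild-type and 5 Ndrg3 LKO, and each liver gave 1 library. The Ndrg3 LKO mice carried floxed Ndrg3 alleles and a Cre recombinase under the albumin promoter, which is active in hepatocytes. Exon 4 of Ndrg3 was thereby deleted in these cells. Counts from whole liver do not show its state in the other cells of the liver. The controls are called wild-type littermates. By the stated cross, of Ndrg3 f/+ mice with Alb-Cre to Ndrg3 f/f mice, littermates would carry at least 1 floxed allele, and the alleles and Cre status of these controls are not given. Both groups are labelled C57BL/6, the floxed line having been backcrossed to C57BL/6N, and were fed ad libitum. The mice were 8 to 10 weeks old by the methods and 10 to 12 weeks old by a figure legend, and the sex of these livers is given only by a general statement that males were used unless mentioned otherwise.

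The question was whether deletion of Ndrg3 changed the RNA of these transferases. Between 20872262 and 24747870 reads were counted per wild-type liver and between 23474693 and 30450057 per Ndrg3 LKO liver. Ndrg3 itself, counted over the whole gene and not over exon 4, lay between 15.9 and 21.9 CPM in wild-type and between 7.07 and 9.16 CPM in Ndrg3 LKO livers (log2 fold change -1.20, SE 0.13, adjusted p = 3.87e-05). Ndrg3 LKO replicate 5 stood apart. Its score on the first principal component was 14.1, against 51.1 to 56.6 in the other Ndrg3 LKO livers and -49.9 to -43.0 in wild-type livers, and its 10 most abundant genes took 20.3% of counts, against 10.99% to 11.7% in replicates 1 to 4. Each fit was therefore also made on the 9 livers without it. The legend of the study's RNA heatmap counts 4 Ndrg3 LKO livers, and the paper does not name the liver left out. The change between the groups covered much of the transcriptome, with 5443 of 11208 genes tested having an adjusted p under 0.05 (48.6%), of which 2865 were called higher (25.6% of the genes tested) and 2578 lower (23.0%) in Ndrg3 LKO livers. Adjusted p-values are from edgeR's quasi-likelihood test, adjusted over all genes tested.

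In the liver, alpha, mu and pi enzymes are abundant soluble proteins of the hepatocyte. Alpha enzymes handle lipid peroxidation products and bind bilirubin and other ligands, mu enzymes conjugate epoxides and quinones, pi enzymes conjugate electrophiles such as acrolein and are strongly expressed in male mouse liver, and the theta enzyme acts on small halogenated compounds. Many of these genes are known to be induced by electrophiles through the transcription factor NRF2, which binds antioxidant response elements, and by the nuclear receptors CAR and PXR.

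Reads from the closest family members are hard to tell apart, so their sequences are shown first. Gsta1 and Gsta2 differ at 14 of 669 aligned coding bases (97.9% identity), and Gstp1 and Gstp2 at 12 of 633 (98.1%). The stretches below are 120 coding bases each from the GENCODE transcripts of NCBIM37 (mm9), read 5′ to 3′ on the coding strand, and capitals mark the 6 bases at which the partners differ. For the alpha genes they are coding bases 548 to 667, and for the pi genes coding bases 1 to 120.
Gsta1: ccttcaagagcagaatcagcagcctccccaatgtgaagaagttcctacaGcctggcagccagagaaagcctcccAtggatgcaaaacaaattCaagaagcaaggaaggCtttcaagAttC
Gsta2: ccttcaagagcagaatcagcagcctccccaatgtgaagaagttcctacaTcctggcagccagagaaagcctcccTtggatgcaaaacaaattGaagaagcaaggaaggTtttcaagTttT
Gstp1: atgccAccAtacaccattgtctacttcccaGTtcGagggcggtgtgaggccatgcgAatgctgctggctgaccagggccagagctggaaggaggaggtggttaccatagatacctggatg
Gstp2: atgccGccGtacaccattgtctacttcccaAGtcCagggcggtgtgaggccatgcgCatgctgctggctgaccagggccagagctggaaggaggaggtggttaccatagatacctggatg

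Of the 776 windows of 100 bases in Gsta1 transcripts, 81.8% also occur in transcripts of Gsta2 or of 2 annotated neighbours named Gm3776 and Gm10639. The corresponding share was 24.8% for Gsta2, 57.3% for Gstp1 and 57.7% for Gstp2, each of the pi genes sharing windows with the other. It was 3.56% for Gstm3 and 1.34% for Gstm1, and no window of Gsta3, Gsta4, Gstm2 or Gstt1 was shared. Counts of Gsta1, Gsta2, Gstp1 and Gstp2 are therefore uncertain as values of single genes. A read inside a shared window can be assigned to 1 gene only through its mate, the read from the other end of the fragment. The authors counted with the count module of STAR, which is known to leave out reads that map to several places. Values of these genes would then rest on read pairs that reach outside the shared windows.

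The genes lie in clusters. In mm9, Gsta4 (chr9:78039773-78057155) and Gsta1 (chr9:78078463-78090491) are on the plus strand and Gsta2 (chr9:78178825-78203595) on the minus strand, while Gsta3 is on chromosome 1 (chr1:21230670-21255442, plus strand). The mu genes Gstm3 (chr3:107745251-107772201), Gstm2 (chr3:107784620-107789371) and Gstm1 (chr3:107815173-107820891) follow each other on the minus strand. Gstm3 overlaps the gene models of Gstm6 and Gm12494 on its own strand, so reads in the overlap cannot be assigned to 1 gene by position. Gstp1 (chr19:4035411-4037921) and Gstp2 (chr19:4040291-4042221) are neighbours on the minus strand, and Gstt1 (chr10:75246558-75261329) also lies on the minus strand. All values cover the exons of a gene as a whole.

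In wild-type livers the levels spanned a wide range. Genes were compared in CPM per kilobase of exon, which corrects for exon length but not for shared windows. The places of Gsta1, Gsta2, Gstp1 and Gstp2 in the order are therefore uncertain. On this scale Gstp1 was highest at 2768 ± 578 (SD, n = 5), followed by Gsta3 at 1765 ± 278 and Gstm1 at 979 ± 43.2. Gstt1 came next at 169.7 ± 43.5, and none of these 4 overlapped its neighbour in the order. Gsta4 (72.7 ± 12.5), Gstm3 (46.3 ± 14.8), Gstm2 (43.8 ± 4.42) and Gsta2 (29.8 ± 9.90) followed, each overlapping the next over the 5 livers. Gstp2 (4.08 ± 1.24) and Gsta1 (0.929 ± 0.597) were lowest. Ndrg3 LKO livers had another order at the top, with Gstp1 at 1269 ± 339, Gstm1 at 1231 ± 366 and Gsta3 at 834 ± 387 CPM per kilobase, which overlapped each other. At the lower end the mean of Gsta1 was above that of Gstp2, at 9.62 ± 8.04 against 3.07 ± 2.07 CPM per kilobase, with overlapping ranges.

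Of the 10 genes, 5 were called between the groups. Gsta1 and Gstm3 were higher and Gsta3, Gstm2 and Gstp1 lower in Ndrg3 LKO livers. Gsta1, which passed the filter only through the Ndrg3 LKO livers, had to be high there to be tested, and without it 4 of 9 were called. The count of 5 of 10 stands beside 48.6% of all genes. The median log2 fold change of the 10 genes was -0.38, against 0.031 over all genes tested. In the 9 livers without Ndrg3 LKO replicate 5, 2 were higher and 4 lower, Gsta4 being the one added, beside 55.6% of all genes called (28.4% higher and 27.2% lower). For 3 genes, Gsta3, Gstm2 and Gstp1, there was no overlap between the groups in the 10 livers, and the same held for 31.5% of all genes tested.

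**Figure D1:**
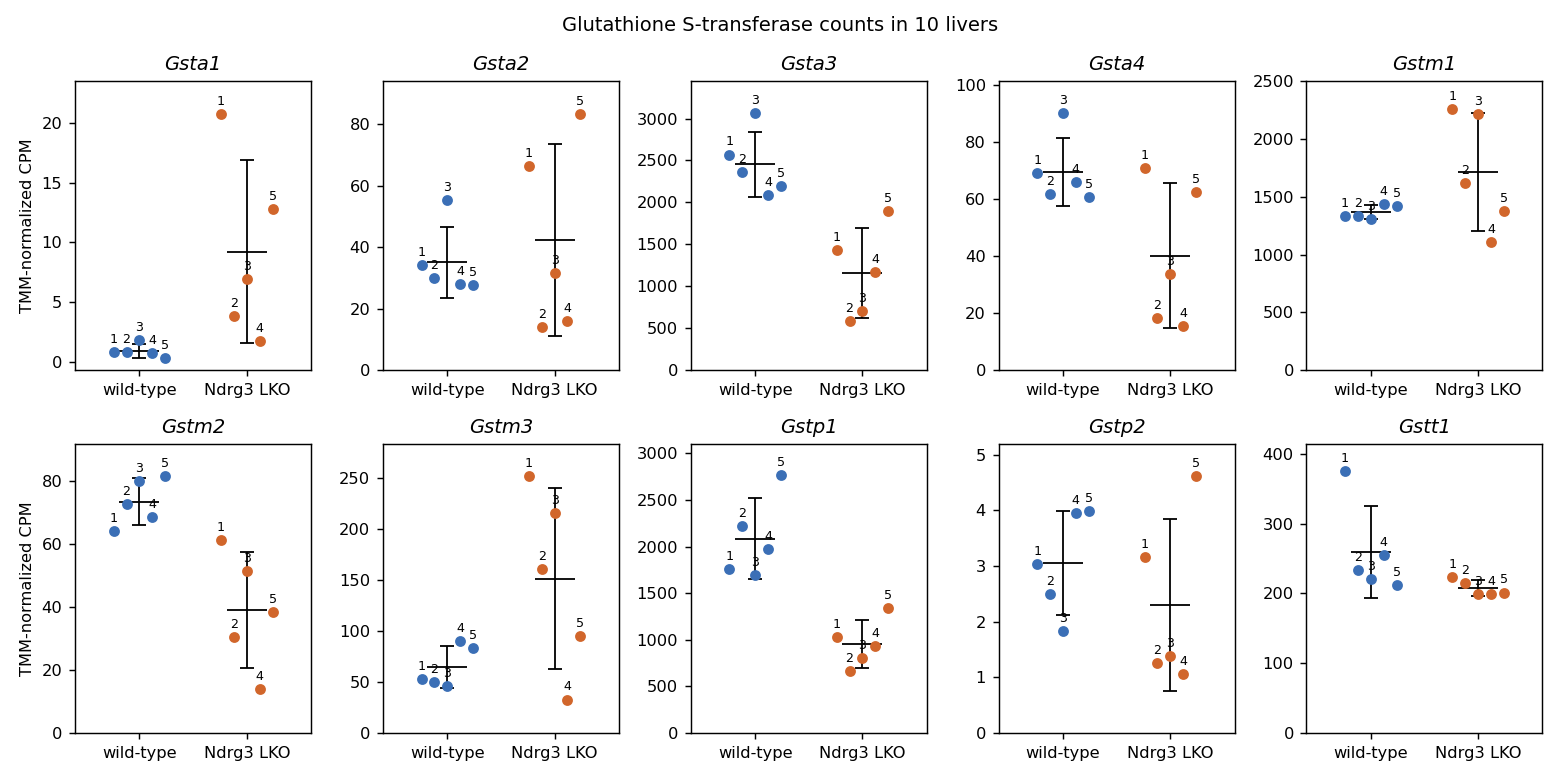
TMM-normalized CPM of the 10 genes in each liver, 1 panel per gene with its own linear axis; numbered points are livers with their replicate numbers, horizontal bars the group means and whiskers the SD over 5 livers. Gsta3, Gstm2 and Gstp1 show no overlap between wild-type and Ndrg3 LKO livers. The SD is larger in Ndrg3 LKO than in wild-type livers for every gene but Gstp1 and Gstt1.

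Gsta3 encodes the main alpha transferase of the mouse liver by RNA in these data, and it fell. In CPM after TMM scaling, which corrects for differences in library composition, the wild-type livers 1 to 5 had 2571, 2363, 3067, 2089 and 2196. Ndrg3 LKO livers 1 to 5 had 1436, 587, 709, 1171 and 1902. All 5 Ndrg3 LKO livers were under the lowest wild-type value, with replicate 5 nearest to it. On the log2 scale the fold change was -1.08 (SE 0.30, adjusted p = 0.0108), or 2.12-fold lower, and without replicate 5 it was -1.34 (SE 0.26, adjusted p = 0.00102). The call ended with quantile normalization and limma (log2 fold change -0.51, adjusted p = 0.112).

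Gsta1, an alpha transferase known for low basal and strongly inducible expression in mouse liver, rose from close to the limit of detection. The wild-type livers held 14, 17, 33, 15 and 5 counts, or 0.786, 0.830, 1.84, 0.689 and 0.298 CPM, where 3 counts amount to between 0.138 and 0.179 CPM. The Ndrg3 LKO livers held 722, 158, 268, 61 and 271 counts, or 20.8, 3.83, 6.90, 1.74 and 12.8 CPM. Ndrg3 LKO replicate 4 fell within the wild-type range, just under wild-type replicate 3, and the other 4 lay above it. Gsta1 had a log2 fold change of 3.36 (SE 0.65, adjusted p = 0.00154), or 10.3-fold, and 3.21 (SE 0.67, adjusted p = 0.00170) without replicate 5. With no filter on low counts, so that passing it played no part, the log2 fold change was 3.31 (adjusted p = 0.00107). On other scales it was smaller, 2.01 with quantile normalization, 2.12 with limma on log2(CPM + 1) and 1.11 with limma on log2(CPM + 5).

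Gsta2, an alpha transferase known to be induced through NRF2, was not called. Its wild-type values were 34.1, 29.9, 55.4, 28.2 and 27.7 CPM and its Ndrg3 LKO values 66.6, 14.2, 31.5, 15.96 and 83.5 CPM. Ndrg3 LKO livers 1 and 5 lay above all wild-type livers and livers 2 and 4 below all of them. Its log2 fold change was 0.27 (SE 0.45, adjusted p = 0.641) and -0.14 (SE 0.41) without replicate 5, so its sign rests on that liver.

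Because Gsta1 and Gsta2 share sequence, their counts were also summed. The summed row was 35.9 ± 12.2 CPM in wild-type and 51.6 ± 37.8 CPM in Ndrg3 LKO livers (SD, n = 5), a log2 fold change of 0.52 with an adjusted p of 0.367, so the call for Gsta1 was not kept in the sum, of which Gsta2 makes up most. The 2 annotated neighbours with shared windows were looked at after values had been seen. Gm3776 (chr9:78104949-78116973, mm9) differs from Gsta1 at 2 of 672 coding bases. It held 2, 5, 13, 4 and 5 counts in wild-type and 338, 88, 168, 32 and 173 counts in Ndrg3 LKO livers, with every Ndrg3 LKO liver above every wild-type liver, a description of a gene chosen for this pattern. Gm10639 was at 0 in all wild-type livers and held 5, 0, 1, 0 and 14 counts in Ndrg3 LKO livers, and it was not tested. With both added to the sum of Gsta1 and Gsta2, the log2 fold change was 0.65 (SE 0.46, adjusted p = 0.265).

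Gsta4 makes the alpha enzyme specialised for 4-hydroxynonenal, an aldehyde from lipid peroxidation. The wild-type values were 69.3, 61.9, 90.1, 66.0 and 60.6 CPM, and the Ndrg3 LKO values 70.8, 18.3, 33.6, 15.3 and 62.5 CPM. Ndrg3 LKO livers 2, 3 and 4 lay below all wild-type livers, while livers 1 and 5 lay within their range. Its log2 fold change was -0.80 (SE 0.38, adjusted p = 0.0985) in 10 livers and -1.02 (SE 0.38, adjusted p = 0.0364) in 9, and it also passed without Ndrg3 LKO replicate 1 (-1.08, adjusted p = 0.0322). In all 10 livers it passed with limma on log2(CPM + 1) (-1.01, adjusted p = 0.0391) and log2(CPM + 5) (-0.91, adjusted p = 0.0393). It also passed with the replicate number as a block in edgeR (-1.05, adjusted p = 0.0431). In 17 of 22 alternatives Gsta4 stayed uncalled.

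The mu genes diverged from each other. Gstm3 was measured at 52.7, 50.01, 46.2, 90.2 and 83.3 CPM in wild-type livers and at 251.5, 161, 216, 32.7 and 94.8 CPM in Ndrg3 LKO livers. Replicates 1, 2, 3 and 5 of the Ndrg3 LKO livers were above all wild-type livers, and replicate 4 was below all of them. For Gstm3 the log2 fold change was 1.23 (SE 0.43, adjusted p = 0.0340) in 10 livers and 1.35 (SE 0.44, adjusted p = 0.0211) in 9. The call was lost when wild-type replicate 1, 2 or 3 or Ndrg3 LKO replicate 1 or 3 was left out, with log2 fold changes between 1.01 and 1.17 and adjusted p-values of 0.0736, 0.0732, 0.0757, 0.0842 and 0.0706 in this order. It was also lost with quantile normalization and limma (1.13, adjusted p = 0.0731) and with limma on log2(CPM + 1) (0.97, adjusted p = 0.101) and log2(CPM + 5) (0.94, adjusted p = 0.0963).

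Gstm2 was lower. Its wild-type values were 64.3, 72.6, 80.2, 68.7 and 81.7 CPM, against 61.3, 30.6, 51.4, 13.9 and 38.4 CPM in Ndrg3 LKO livers. The groups did not overlap, although Ndrg3 LKO replicate 1 lay close to wild-type replicate 1. For Gstm2 the log2 fold change was -0.91 (SE 0.30, adjusted p = 0.0260) in 10 livers and -0.92 (SE 0.33, adjusted p = 0.0319) in 9. Leaving out wild-type replicate 3 or 5 or Ndrg3 LKO replicate 2 took the adjusted p to 0.0503, 0.0504 and 0.0574, with log2 fold changes of -0.88, -0.87 and -0.82. With scaling by library size alone it was -0.39 (adjusted p = 0.282).

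Gstm1, the most abundant mu transferase here, had 1329.95, 1329.8, 1305, 1438 and 1421 CPM in wild-type livers. In Ndrg3 LKO livers it had 2258, 1621, 2216, 1106 and 1378 CPM. Replicates 1, 2 and 3 were above all wild-type livers, replicate 4 was below all of them and replicate 5 was within their range. The wild-type livers spread little, with an SD of 60.3 CPM, against 509.7 CPM in Ndrg3 LKO livers. The log2 fold change of 0.33 (SE 0.21, adjusted p = 0.203) was not called, whereas scaling by library size alone gave 0.87 (adjusted p = 0.00616) and quantile normalization with limma gave 0.96 (adjusted p = 0.0138).

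Gstp1, the pi transferase and the most abundant of the 10 genes per length in wild-type livers, fell. Wild-type values were 1756, 2223, 1697, 1978 and 2768 CPM, and Ndrg3 LKO values were 1034, 668, 799.8, 938 and 1340.2 CPM. No Ndrg3 LKO liver reached the lowest wild-type liver. The log2 fold change was -1.12 (SE 0.22, adjusted p = 0.00159), or 2.18-fold lower, and -1.29 (SE 0.19, adjusted p = 1.82e-04) without replicate 5. Its call and direction were kept under all 22 alternatives tried, but the size was smaller with scaling by library size alone (-0.64) and with quantile normalization and limma (-0.52).

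Gstp2, its near-identical neighbour, was counted 33 to 86 times in wild-type and 37 to 110 times in Ndrg3 LKO livers. Its values were 3.03, 2.49, 1.84, 3.95 and 3.99 CPM in wild-type and 3.16, 1.26, 1.39, 1.05 and 4.62 CPM in Ndrg3 LKO livers, and the groups overlapped on both sides. The log2 fold change was -0.44 (SE 0.41, adjusted p = 0.399). The summed counts of Gstp1 and Gstp2 had a log2 fold change of -1.12 (adjusted p = 0.00162).

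Gstt1 varied least of the 10 genes among Ndrg3 LKO livers. It had 375, 234, 221, 255 and 212 CPM in wild-type livers and 224, 214, 199.6, 199 and 201 CPM in Ndrg3 LKO livers. Wild-type replicate 1 was far above the other 4, and the groups overlapped, wild-type replicates 3 and 5 lying under Ndrg3 LKO replicate 1. The log2 fold change was -0.32 (SE 0.17, adjusted p = 0.126), and with scaling by library size alone it was 0.21 (adjusted p = 0.344), so its sign depends on the scaling.

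**Figure D2:**
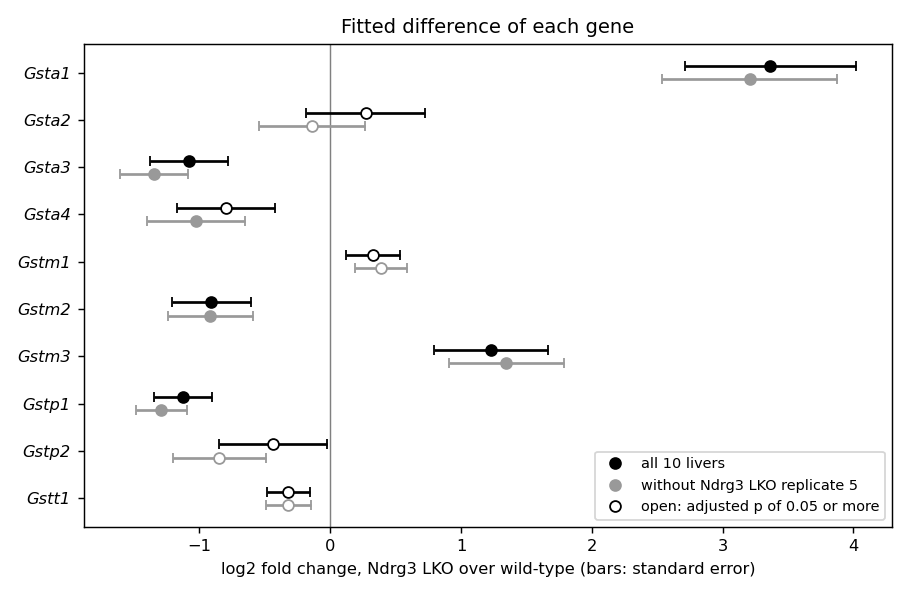
Log2 fold change of Ndrg3 LKO over wild-type livers for the 10 genes (x axis), with bars of 1 standard error, from edgeR fits of all 10 livers (black) and of the 9 livers without Ndrg3 LKO replicate 5 (grey); filled points have an adjusted p under 0.05. Gsta1 at 3.36 and Gstm3 at 1.23 lie right of 0, Gsta3 at -1.08, Gstm2 at -0.91 and Gstp1 at -1.12 left of it, and Gsta4 is filled only in the fit of 9 livers.

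Since scaling moved some of these values, the count ratio of 2 genes within a liver, which no scaling can change, was compared between the groups for all 10 pairs within a class. An exact 2-sided permutation test over all arrangements of the 10 livers into groups of 5 was used, with 0.5 added to each count and adjustment over the 10 pairs, and the smallest p this design allows is 0.00794. Of the pairs, 7 had an adjusted p under 0.05, among them all 3 with Gsta1. The share of pairs of other genes that would pass was not measured. The count can therefore not be read as a trait of this family, since 48.6% of all single genes tested were called and 31.5% did not overlap. The ratio of Gsta1 rose by 3.09 on the log2 scale against Gsta2, by 4.27 against Gsta3 and by 4.11 against Gsta4, each with no overlap between the groups and an adjusted p of 0.0132. Gsta2 rose against Gsta4 by 1.01 (adjusted p = 0.0132), and by 1.17 against Gsta3 with overlapping groups (exact test, adjusted p = 0.0227).

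In the mu class the ratio of Gstm1 to Gstm2 rose by 1.35 and that of Gstm2 to Gstm3 fell by 2.05, both with no overlap (exact test, adjusted p = 0.0132). The mean log2 ratio of Gstm2 to Gstm3 was 0.24 ± 0.47 in wild-type and -1.81 ± 0.51 in Ndrg3 LKO livers (SD, n = 5). The 3 remaining pairs did not pass. Their differences were -0.16 for Gsta3 to Gsta4 (exact test, adjusted p = 0.778), -0.70 for Gstm1 to Gstm3 (adjusted p = 0.159 by the same exact test) and -0.54 for Gstp1 to Gstp2 (adjusted p = 0.176 by the same exact test). Pairs of genes that share a member are not independent of each other, and the ratios with Gsta1 and Gsta2 carry the sharing of reads described above. Without Ndrg3 LKO replicate 4 the differences of Gsta3 to Gsta4 (-0.48) and Gstm1 to Gstm3 (-1.03) passed as well, each with an adjusted p of 0.0176 in the exact test.

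**Figure D3:**
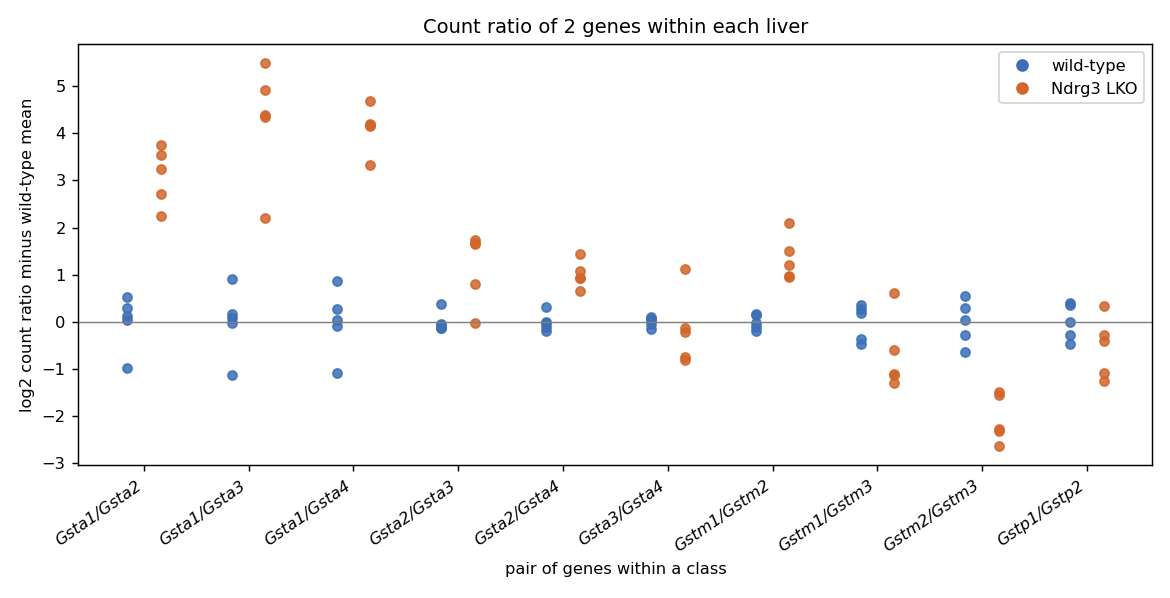
Log2 ratio of the counts of 2 genes of the same class in each liver, minus the wild-type mean of that pair (y axis); each point is 1 liver, blue for wild-type and orange for Ndrg3 LKO. The ratios of Gsta1 to the other alpha genes sit above 2 in all Ndrg3 LKO livers, those of Gstm2 to Gstm3 sit below every wild-type liver, and the Gsta3 to Gsta4 and Gstp1 to Gstp2 pairs overlap.

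Together the 10 genes were counted at 6412 ± 317 CPM in wild-type and 4325 ± 941 CPM in Ndrg3 LKO livers (SD, n = 5), without overlap. Alpha genes summed to 2563 ± 409 and 1252 ± 590 CPM and pi genes to 2088 ± 435 and 958 ± 257 CPM, with every Ndrg3 LKO liver under the wild-type range in both classes. Mu genes summed to 1503 ± 81.4 and 1906 ± 614 CPM and overlapped. As a share of the counts of the 10 genes, which is free of scaling, mu genes took 23.5% (21.8% to 26.5%) in wild-type and 44.5% (29.5% to 58.2%) in Ndrg3 LKO livers. Alpha genes went from 40.0% to 28.2% and pi genes from 32.5% to 22.2% in mean share, and in both classes the ranges overlapped. These sums are dominated by Gsta3, Gstm1 and Gstp1 and were not tested. As a share of all counts in the library, with no TMM scaling, the 10 genes took 0.536% ± 0.0196 in wild-type livers (0.506% to 0.552%). In Ndrg3 LKO livers the share was 0.513% ± 0.0901 (0.442% to 0.649%), and the groups overlapped. Ndrg3 LKO livers 1 (0.649%) and 3 (0.562%) were above every wild-type liver on this scale. Whether the total was lower in each Ndrg3 LKO liver therefore depends on the scaling.

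**Figure D4:**
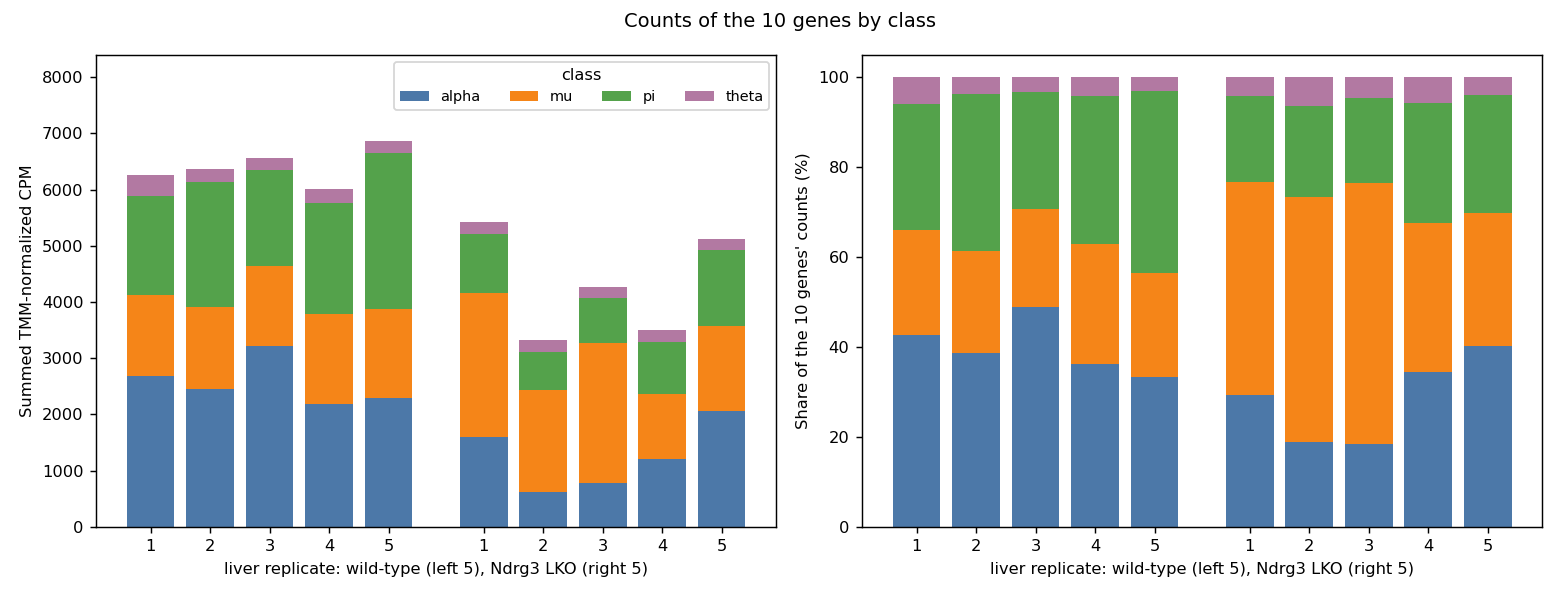
Summed TMM-normalized CPM of the 10 genes in each liver (left) and the share of their counts taken by each class in percent (right), as stacked bars for the 5 wild-type and 5 Ndrg3 LKO livers. The mu part covers 29.5% to 58.2% of the bar in Ndrg3 LKO livers and 21.8% to 26.5% in wild-type livers, and the total height is lower in all Ndrg3 LKO livers.

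The Ndrg3 LKO livers also differed among themselves in TMM-normalized CPM. Livers 1 and 5 had the 2 highest values of all 4 alpha genes and of both pi genes in that group. Gsta3 and Gstp1, of different classes, ranked the 5 livers in the same order, with liver 5 highest and liver 2 lowest. For all 3 mu genes liver 1 was highest and liver 4 lowest on this scale. For Gstm1 this order depends on TMM scaling. With scaling by library size alone, liver 3 was highest at 2923 CPM against 2701 CPM in liver 1. Liver 5 was then lowest at 1245 CPM against 1398 CPM in liver 4. The ratio of the highest to the lowest Ndrg3 LKO liver was 11.9 for Gsta1, 7.68 for Gstm3 and 5.88 for Gsta2, against 1.12 for Gstt1. Among wild-type livers the ratio was 6.17 for Gsta1 and between 1.10 and 2.17 for the other 9 genes.

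Livers were also searched for genes whose deviations from the group means most resembled those of the leading gene of each class, by Pearson's r over 10 livers among 7140 genes with a mean of at least 10 CPM. These are descriptions, since the best of so many genes is high by construction and the points share library depth and scaling. Nearest to Gsta3 were Caml (r = 0.98), Akr1c12 (r = 0.97) and Utp11l (r = 0.97). Among those nearest to Gstm1 were Ntrk2 (r = 0.96) and Cd63 (r = 0.93). Map3k10 (r = 0.98), Dda1 (r = 0.96) and Noc4l (r = 0.96) were nearest to Gstp1, and Pnkd (r = 0.90) was among those nearest to Gstt1.

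The 250 bases before the start site of Gstp1, Gstp2 and Gsta3 are shown because these promoters held a searched motif of stress-responsive factors, and Gstp1 and Gsta3 were lower in Ndrg3 LKO livers. They were taken from RefSeq in the build GRCm38.p6, which differs from the mm9 build of the files, and 9 of the 10 genes had an entry, Gsta4 having none. Capitals mark the antioxidant response element core TGACNNNGC, the AP-1 site TGANTCA and the GC box GGGCGG, searched on both strands along with the TATA box TATAAA. An AP-1 site can overlap an antioxidant response element, since both begin with TGA.
Gsta3, chr1:21240335-21240584, plus strand: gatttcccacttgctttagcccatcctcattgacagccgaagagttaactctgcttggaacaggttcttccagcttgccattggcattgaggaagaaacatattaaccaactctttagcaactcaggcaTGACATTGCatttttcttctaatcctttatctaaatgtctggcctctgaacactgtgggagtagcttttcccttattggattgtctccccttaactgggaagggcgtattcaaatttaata
Gstp1, chr19:4037913-4038162, minus strand: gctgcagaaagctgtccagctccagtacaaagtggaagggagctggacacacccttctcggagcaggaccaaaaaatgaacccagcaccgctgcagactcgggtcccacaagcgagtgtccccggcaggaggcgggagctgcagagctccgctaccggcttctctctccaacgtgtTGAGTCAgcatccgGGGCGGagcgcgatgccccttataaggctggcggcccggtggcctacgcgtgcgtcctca
Gstp2, chr19:4042222-4042471, minus strand: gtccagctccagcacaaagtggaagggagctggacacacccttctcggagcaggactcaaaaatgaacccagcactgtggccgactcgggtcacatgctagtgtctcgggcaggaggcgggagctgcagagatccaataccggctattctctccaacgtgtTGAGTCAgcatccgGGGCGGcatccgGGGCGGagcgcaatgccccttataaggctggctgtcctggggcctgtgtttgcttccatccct

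The antioxidant response element core was found in 1 of the 9 promoters, that of Gsta3 at position -121, and in 12.4% of all 32851 promoter windows of 300 bases. The AP-1 site was found in Gstp1 at -74 and in Gstp2 at -89 and in 7.81% of all windows. GC boxes were found in Gstm3, Gstp1 and Gstp2 (35.7% of all windows) and TATAAA in Gsta2 and Gstm1 (13.6%). The Gstp1 and Gstp2 windows were 84.9% identical and those of Gsta1 and Gsta2 80.3%. In each of these 2 pairs the genes with alike promoters had unlike counted levels. In wild-type livers Gstp1 was at 2085 against Gstp2 at 3.06 CPM, and Gsta2 at 35.1 against Gsta1 at 0.888 CPM. These values are not corrected for exon length or for shared windows. The windows hold known letters only and do not cover distal elements.

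The counts of called genes in this list and the lists below stand beside 48.6% of all genes tested, 25.6% higher and 23.0% lower. Without Ndrg3 LKO replicate 5 these shares were 55.6%, 28.4% and 27.2%. Of the other glutathione transferases, 12 of 18 present in the files were tested, and 1 was higher and 5 lower in Ndrg3 LKO livers (median log2 fold change -0.14). Mgst1, the membrane-bound microsomal transferase, had the highest counts of the whole family. It fell from 5268 ± 518 to 2367 ± 423 CPM (SD, n = 5, log2 fold change -1.15, SE 0.18, adjusted p = 3.93e-04). Gstm6, the mu gene that overlaps Gstm3, fell by 1.70 on the log2 scale (SE 0.15, adjusted p = 1.31e-05), from 142.5 ± 10.1 to 43.9 ± 8.98 CPM, while Gstm3 rose.

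Gstz1, which isomerises maleylacetoacetate in tyrosine breakdown, fell from 725 ± 41.1 to 352 ± 112 CPM (log2 fold change -1.04, adjusted p = 0.00129). Gsto1, an omega transferase with thioltransferase activity, had a log2 fold change of -0.94 (adjusted p = 0.00234) and the theta gene Gstt2 one of -0.77 (adjusted p = 0.00427). Gstm5 was the one called higher, at 6.67 ± 1.75 and 11.6 ± 2.82 CPM (log2 fold change 0.80, adjusted p = 0.00926). Gstm4 (-0.069), Gstm7 (-0.20), Gstt3 (0.25), the mitochondrial Gstk1 (0.28), Gstcd (0.28) and Mgst3 (0.40) were not called. The neighbour of Gstp2 in mm9 that is named BC021614 (chr19:4057478-4059295, minus strand) was looked at after its values had been seen, since the RefSeq table lists another pi gene, Gstp3, as the neighbour of Gstp2. It had 17.6 to 23.8 CPM in wild-type and 55.3 to 146.6 CPM in Ndrg3 LKO livers, which is given as a description only. The start window of Gstp3 in GRCm38 (chr19:4059398-4059697, minus strand) lies close to the end of BC021614 in mm9. BC021614 may thus be Gstp3 under another name, and it is not part of the count of other transferases above.

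Of the 23 regulators listed for these genes, 3 were higher and 6 lower. Nfe2l2, which encodes NRF2, was higher by 2.21 on the log2 scale (SE 0.28, adjusted p = 1.11e-04), Fos, an AP-1 subunit, by 1.93 (SE 0.56, adjusted p = 0.0143) and the hepatocyte factor gene Foxa2 by 0.79 (SE 0.17, adjusted p = 0.00281). The hepatocyte factor genes Cebpa, Hnf4a and Cebpb had log2 fold changes of -1.76, -1.58 and -0.89, with adjusted p-values of 4.75e-04, 1.34e-04 and 0.0479. Nr1i3, which encodes CAR, had -1.73, the fatty acid sensor gene Ppara -1.50 and Mafg, a small partner of NRF2, -0.93 (adjusted p = 0.00304, 4.82e-05 and 0.00162). The other 14, among them Keap1, Mafk, Maff, Bach1, Nfe2l1, Nr1i2, Rxra, Ahr, Arnt, Foxa1, Nr3c1, Stat5b and Jun, were not called, with log2 fold changes between -0.48 and 0.55.

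Other target genes of NRF2, without the transferases, went both ways, 9 higher and 7 lower of 22 tested (median 0.12). Cbr1, a carbonyl reductase (1.91), and Nqo1, a quinone reductase (1.73), rose most among them, and Osgin1 (-1.79) and the exporter gene Abcc3 (-1.47) fell most, all on the log2 scale. Of 19 CAR and PXR target genes 3 were higher and 12 lower (median -0.81). The cytochrome P450 genes Cyp2b9 and Cyp2a4 rose by 8.68 and 8.36 on the log2 scale, and both are also known as female-biased liver genes. Without replicate 5, at 1698 CPM against 32.2 to 103 CPM in the other Ndrg3 LKO livers, Cyp2a4 rose by 5.71. Cyp2c54 and Cyp2c50 fell by 5.75 and 4.88 on this scale. Without replicate 5 the counts were 9 higher and 8 lower for NRF2 targets and were unchanged, 3 and 12, for CAR and PXR targets.

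In glutathione synthesis and turnover, 4 genes were higher and 8 lower of 18 tested (median -0.25), and the 12 called became 7 without Ndrg3 LKO replicate 1 or 4. Gss, the glutathione synthetase, rose by 1.23 (SE 0.15) and Slc1a5, a transporter of neutral amino acids, by 1.62 (SE 0.29) on the log2 scale. Ggt6, of the gamma-glutamyltransferase family, fell by 1.19 (SE 0.38) and Anpep, an aminopeptidase that cleaves cysteinylglycine, fell by 0.999 (SE 0.17). Among peroxidases, peroxiredoxins and thioredoxins 5 were higher and 1 lower of 21 (median 0.11), the lower one being Cat, or catalase (-1.61), and the leading higher ones Txnrd2 (0.91) and Txn2 (0.55), which act in mitochondria. Without replicate 5 the lower count was 4. Of 14 exporters of glutathione conjugates and enzymes that turn them into mercapturates, 2 were higher and 7 lower (median -0.60), with Ccbl2 (-1.85) and Nat8 (-1.65), which acetylates cysteine conjugates, falling most. Without replicate 5 the lower count was 10. With scaling by library size alone, 13 rather than 6 of the peroxidase, peroxiredoxin and thioredoxin genes and 5 rather than 9 of the exporter and mercapturate genes were called.

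Other features of the livers moved with the groups. The summed CPM of 7 hepatocyte markers was 127905 to 168224 in wild-type livers, 34173 to 40810 in Ndrg3 LKO livers 1 to 4 and 144832 in replicate 5, with 5 of 7 lower. Macrophage (7 of 7), endothelial (7 of 8) and stellate cell markers (5 of 8) were higher, with summed CPM of 89.2 to 219, 64.1 to 83.5 and 112 to 178 in wild-type and 163 to 481, 132 to 180.5 and 241 to 313 in Ndrg3 LKO livers. None of the tested markers of these 3 cell types was lower. Of 6 cholangiocyte markers 1 was higher and 1 lower. No lymphocyte marker passed the filter, and their summed CPM stayed at 1.37 to 3.09 in wild-type and 1.599 to 7.12 in Ndrg3 LKO livers. The 1 erythroid marker tested was lower, and the summed CPM of the 4 listed was 141 to 165 in wild-type and 4.43 to 39.1 in Ndrg3 LKO livers. Of 8 pericentral hepatocyte markers 1 was higher and 4 lower, and of 7 periportal ones tested 1 was lower. Pericentral markers had a summed CPM of 16373 to 18864 in wild-type and 2893 to 3588 in Ndrg3 LKO livers. For periportal markers the sum was 8869 to 13122 in wild-type livers, 5555 to 8256 in Ndrg3 LKO livers 1 to 4 and 14541 in replicate 5. Without replicate 5, 3 of the 7 periportal markers were lower, and 2 pericentral ones were higher and 4 lower.

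All 16 male-biased liver genes were lower, with a median log2 fold change of -3.30. Of 16 female-biased genes only 7 passed the filter, of which 4 were higher and 1 lower. The 5 called became 3 without Ndrg3 LKO replicate 1 or 3. A gene under 1 CPM in the wild-type livers could pass only by being high in Ndrg3 LKO livers, so the filter favours higher genes here. With no filter on low counts 10 of the 16 were called. The male-biased genes summed to 34108 to 54372 CPM in wild-type and 1740 to 5137 CPM in Ndrg3 LKO livers. The part of these features in the values of the transferase genes was not tested. In bulk liver, fewer cells of a type and less RNA per cell cannot be told apart.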

How the data were processed

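The authors prepared stranded mRNA libraries, read 100 bases from both ends, and aligned the reads to mm9 by STAR, whose count module gave the value of each gene. The submitters' processing notes name bcl2fastq, Trim Galore 0.6.4, STAR 2.7.3a and Cufflinks 2.2.1, and the methods name an earlier version of STAR. The deposited values are raw read counts per gene symbol for each liver, whole numbers without normalization although labelled CPM. The annotation and strand setting of the counting are not given in the sources used here.

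Tests covered genes that reached 1 CPM in 5 or more livers (4 or more in the fit of 9 livers) and were made with R 4.3.3 and edgeR 4.0.16, using TMM scaling, the quasi-likelihood test between the 5 wild-type and 5 Ndrg3 LKO livers and Benjamini-Hochberg adjustment at a threshold of 0.05. limma 3.58.1 and DESeq2 1.42.0 served as alternatives. Values per liver are CPM after TMM scaling. The smallest readable signal was set at 3 counts, which covers counting error only. Tests were tried on simulated counts with known changes. The labels do not say whether livers of 1 group came from separate litters, so p-values measure the spread between these livers. The 20 pairs of livers within a group all differed by more than sampling noise (chi-square per degree of freedom 25.7 to 450).

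The genes, the lists of other genes and the tests were chosen with earlier results of these data known. All 10 genes, all other tested transferase genes, all tested regulators, and from the other lists up to 2 called genes with the largest rise and 2 with the largest fall with a mean of 10 CPM or more in the group where they were higher were to be named. Cell type and sex-biased lists are given by counts, and some genes that the rule would name are not reported here. Gm3776, Gm10639 and BC021614 were added after their values were seen. Alternatives covered scaling, filters, tests, pseudocounts, summing of near-identical genes, a fold threshold, the replicate number as a block and leaving out each liver.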

Additional observations from a re-analysis of the deposited data

Results flagged for a closer look

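Among 20 groups of 5 livers (10 genes in each genotype), 2 held a liver far from the others. Chance alone gives about 1 in 20 groups such a gap. Gsta2 was at 55.4 CPM in wild-type replicate 3, against 27.7 to 34.1 CPM in the other wild-type livers. Gstt1 was at 375 CPM in wild-type replicate 1, against 212 to 255 CPM in the others. In each case the gap to the nearest liver was compared with the range of the group, and the liver was kept in all fits.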

How the results depend on the processing

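Over 22 alternatives, Gstp1 kept its direction and its call in 22, Gsta1 in 20, Gsta3 in 21, Gstm2 in 17 and Gstm3 in 13, the last losing its call in 9. Gsta4 and Gstm1, not called in the main fit, were called in 5 and 2 of these alternatives. The number of genes changed was 5443, with 2301 above an absolute log2 fold change of 1 and between 4431 and 6360 with 1 liver left out. Of the 10 genes, between 3 and 6 were called with 1 liver left out, the 3 being found without wild-type replicate 3. The count of pairs stayed at 7 to 9. Scaling by library size moved the median of all genes to 0.56 and the share of higher genes among those called from 52.6% to 85.2%. Relative to that median Gsta3 was at -1.19, Gstm2 at -0.95, Gstp1 at -1.20, Gstm3 at 1.22 and Gstt1 at -0.35. Taking off the median removes the shift that this scaling brings, so these values are no separate check. With quantile normalization and limma, relative to its own median, the same genes were at -0.55, -0.97, -0.55, 1.09 and -0.061. Signs turned for Gstt1 with library-size scaling (0.21), for Gsta2 with limma on log2(CPM + 1) (-0.019), with the replicate block (-0.051) and without Ndrg3 LKO replicate 5 (-0.14, in a range up to 0.50 with 1 liver left out), and for the Gsta3 to Gsta4 ratio without Ndrg3 LKO replicate 1 (0.0023, in a range down to -0.48). None of the turned values was called, and the cause was not tested. No pairing by replicate number was seen, as same-numbered livers had correlations of deviations between -0.36 and 0.036. These few correlations cannot show that the livers were unpaired. With the number as a block 4412 genes were called and of the 10 genes 1 was higher and 4 lower, Gstm3 not being called (1.05, adjusted p = 0.156). Depth limits Gsta1 and Gstp2, with as few as 5 and 33 counts in a wild-type liver.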
